A study of Mus musculus with 9 samples.

Results

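The comparison described here sets mouse cardiomyocytes with raised Firre against a blank control, 3 libraries on each side. Firre is a long noncoding RNA made from the X chromosome. All genes with at least 10 counts in 3 or more of these 6 libraries were taken, which kept 15279 of the 55487 gene identifiers in the count table, and 27046 identifiers had any count in the 6 libraries. Of the genes kept, 145 passed the count minimum only in the Firre libraries and 175 only in the blank control libraries.

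The series measured RNA by sequencing in isolated cardiomyocytes, the beating cells of heart muscle, with 3 libraries in each of 3 groups. The Firre group carries the name AAV9-Firre, after an adeno-associated virus that infects heart muscle well, and a negative control carries the name AAV9-VC and is called the vector control below. No virus is named for the blank control, NC. The Firre group thus differs from the blank in both virus and Firre, which cannot be told apart in this comparison, so values of the vector control are given beside the main results. The labels state neither strain, age, sex, virus dose, promoter nor time after infection. Replicates are called biological, but whether each had its own animal or culture is not said, so the p-values reflect the spread among these libraries alone, part or all of which could be technical. The series title names proliferation and repair of heart muscle, PTBP1 and the Akt pathway as the study's subject.

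Firre RNA stays mostly in the nucleus, binds the scaffold protein HNRNPU through a repeated domain and gathers near several loci on other chromosomes. Type I interferon, released by cells that sense foreign nucleic acid, acts through a receptor pair and JAK kinases on a complex that holds STAT2 and IRF9. This complex binds the interferon-stimulated response element and switches on antiviral genes. A maturing heart muscle cell leaves the cell cycle, builds sarcomeres and burns fatty acids in its many mitochondria, while fibroblasts, endothelial cells, macrophages and epicardial cells of the heart make matrix, vessels, immune proteins and the outer lining.

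Gene counts per library ran from 15591542 to 22697016. Values are CPM, counts per 1000000 with library sizes scaled by edgeR, and a gene is said to have risen or fallen when its adjusted p in edgeR's quasi-likelihood test over all genes was under 0.05. Library profiles correlated at 0.992 among the Firre libraries, at 0.990 to 0.992 among the blank libraries, at 0.951 to 0.958 between these groups and at 0.989 to 0.993 between vector control and blank. The cardiomyocyte label was checked against marker genes. Myh6, the main heart myosin of the mouse, stood at 15003 to 16271 CPM in the blank, and 12 cardiomyocyte markers summed to a mean of 36360 CPM there. Markers of other cells also had counts there. Their mean sums were 12245 CPM for fibroblasts, 4694 CPM for smooth muscle cells and pericytes, 1816 CPM for endothelial cells, 483 CPM for epicardial and mesothelial cells and 141 CPM for macrophages. Xist, made in female cells, was at 284 to 386 CPM and the Y-linked Ddx3y at 32.7 to 42.3 CPM over the 9 libraries.

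Promoter stretches of 6 genes that rose are shown first because each holds the core of the interferon-stimulated response element. They come from RefSeq (build GRCm38.p6, the assembly known as mm10), are written 5′ to 3′ on the gene's own strand and lie within the 250 bases before the start site. They were chosen after values and letters were seen. Capitals mark the core GAAANNGAA or its reverse complement.
Cxcl10 (chr5:92349054-92349139, minus strand): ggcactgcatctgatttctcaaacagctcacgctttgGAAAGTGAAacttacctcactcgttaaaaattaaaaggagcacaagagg
Rsad2 (chr12:26456523-26456611, minus strand): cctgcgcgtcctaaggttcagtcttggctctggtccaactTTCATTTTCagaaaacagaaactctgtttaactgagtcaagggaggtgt
Ifit1 (chr19:34640740-34640853, plus strand): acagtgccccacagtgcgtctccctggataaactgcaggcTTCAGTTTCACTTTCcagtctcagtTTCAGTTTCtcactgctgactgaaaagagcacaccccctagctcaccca
Oas3 (chr5:120777680-120777774, minus strand): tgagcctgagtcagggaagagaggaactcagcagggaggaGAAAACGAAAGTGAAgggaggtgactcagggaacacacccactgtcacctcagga
Irgm1 (chr11:48871421-48871490, minus strand): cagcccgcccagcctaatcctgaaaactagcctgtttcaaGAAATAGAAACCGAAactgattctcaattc
Stat2 (chr10:128270248-128270325, plus strand): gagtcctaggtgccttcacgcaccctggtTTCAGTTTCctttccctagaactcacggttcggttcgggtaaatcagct
The Ifit1 stretch holds 3 matches, those of Oas3 and Irgm1 hold 2 each, which overlap, and the other stretches hold 1. The core was searched on both strands and occurs in 8.56% of all 32851 promoter windows of 300 bases in the table. It also stands before Ctss, a lysosomal protease gene of macrophages that fell and was kept only through the blank libraries.
Ctss (chr3:95526725-95526785, plus strand): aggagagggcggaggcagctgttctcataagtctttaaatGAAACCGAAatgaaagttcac
Of the genes tested, 10874 (71.2%) had a window in the table, too few for groups of genes to be compared by their motifs. A match describes the letters present and not a bound site.

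Firre itself stood at 33.9, 37.3 and 30.1 CPM in the 3 blank libraries, at 32.6, 34.7 and 32.7 CPM with the vector control and at 62.9, 69.5 and 62.6 CPM with overexpression. The overexpression libraries did not overlap the others and lay 1.92-fold above the blank (log2 0.94, SE 0.07, adjusted p = 2.455e-12 in edgeR). The gene lies on the minus strand of chrX:50555744-50635321, and per kilobase of transcript its level went from 4.09 to 7.88 CPM. Of 15279 genes tested, 8713 differed between Firre overexpression and blank (57.0%), 4317 higher (28.3%) and 4396 lower (28.8%). The counts of list members below are to be read beside these shares, which varied with level. In the quartile of genes highest in the blank 37.5% rose and 33.5% fell, and in the lowest quartile 16.8% and 20.8%. Changes of at least 2-fold were called in 781 higher genes (5.11%) and 1074 lower genes (7.03%), and 40 rose and 104 fell at least 8-fold. The libraries of the groups did not overlap in 9348 genes (61.2%), so a lack of overlap reported for single genes below is shared by most genes. The median absolute log2 fold change was 0.32 over all genes and 0.52 over those called.

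**Figure D1:**
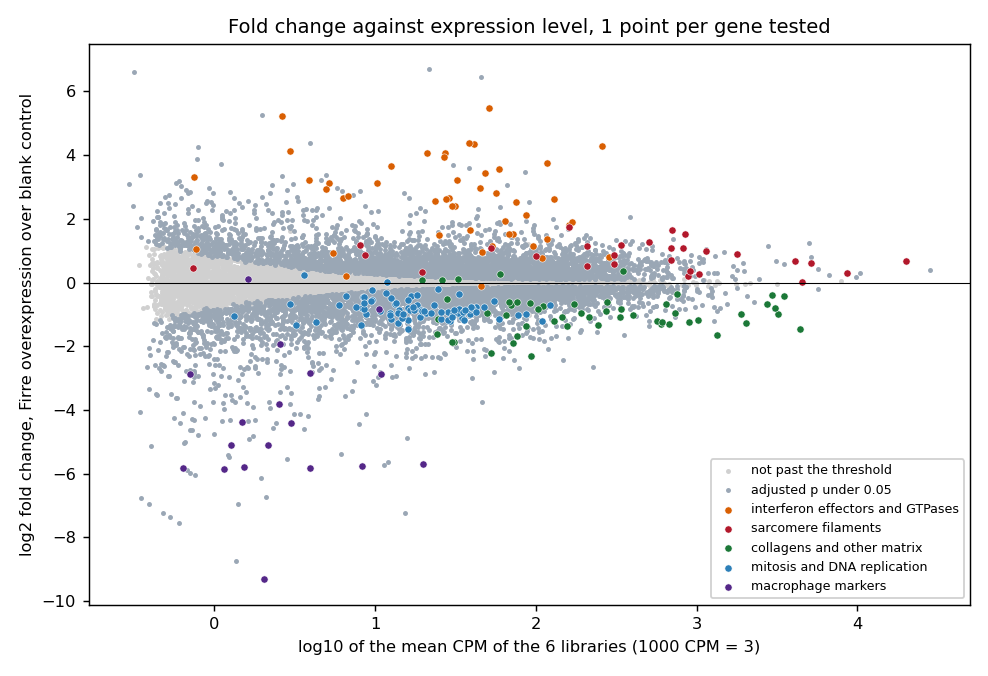
Log2 fold change of Firre overexpression over blank control (y axis) against the log10 of mean CPM over the 6 libraries (x axis), 1 point per gene, light grey where not called, blue-grey where called, and in other colours for 5 groups of lists. Interferon effectors and GTPases lie at the top and macrophage markers at the bottom; the height of a point with no counts in a group is a fitted value and no measured fold.

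The vector control sat close to the blank. Between those groups 6 genes passed the threshold (0.0393%), and 1324 had an unadjusted p under 0.05. Cmya5, a large muscle protein, was higher with the vector, and Irf7, Vwf, Ccl6, Adam8 and Gm4617 were lower. Ccl6 was kept only through the blank libraries, so its inclusion already used a high blank level. The count of 6 was 0 without blank control replicate 1, 62 without blank control replicate 2, 3 without vector control replicate 1 or replicate 2, 15 without vector control replicate 3, 30 in DESeq2 and 98 without a filter on low counts. Over all genes the median absolute log2 fold change against the blank was 0.32 with Firre and 0.081 with the vector control. Over the 1855 genes called at least 2-fold with Firre it was 1.41 and 0.16. Those genes were chosen by their Firre change, so the larger Firre median was fixed in advance. Of them 1816 had a vector difference within 1 on the log2 scale.

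The 12 largest rises, among genes with 2 CPM or more on the higher side, were in Ccl5, Cxcl10, Rsad2, Gbp10, Oasl1, Gsta2, Ifit3b, Ifit1, Mx1, Cmpk2, Oas3 and Ifit3. Apart from Gsta2, a glutathione transferase, these are known as interferon-stimulated genes, and Ccl5, Gbp10, Gsta2 and Mx1 passed the count minimum only in the Firre libraries. Ccl5, a chemokine that draws T cells, stood at 0.508, 0.342 and 0.398 CPM in the blank, at 0.332 to 0.463 CPM with the vector and at 41.5, 40.8 and 46.7 CPM with Firre, and no test is given because its inclusion rests on the Firre libraries. Cxcl10, a chemokine named for its induction by interferon, stood at 1.08, 0.831 and 1.19 CPM in the blank, at 3.14, 1.33 and 1.02 CPM with the vector and at 78.8, 90.8 and 100.4 CPM with Firre (log2 6.45, SE 0.28, adjusted p = 1.673e-07 in edgeR). Both were low in all 6 control libraries and high in each Firre library. The related Cxcl11 had 0 counts in the blank and 38 with Firre, at least 11.2-fold higher against a floor of 3 counts over the group.

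Antiviral effectors rose as a body. Of 33 tested, 31 rose and none fell, against 28.3% of all genes that rose, and the median log2 fold change was 2.56 beside 0.0017 for all genes; 1 member passed the count minimum only in the Firre libraries. Rsad2, an enzyme that makes a chain-terminating nucleotide, went from 2.54, 2.10 and 2.10 CPM to 103, 91.8 and 106 CPM (log2 5.48, SE 0.12). Ifit1, which binds foreign RNA ends, went from 32.5, 23.8 and 20.7 CPM to 509, 454 and 518 CPM (log2 4.27, SE 0.24), with the vector libraries at 15.6 to 29.1 CPM. For both genes the Firre libraries lay far above every control library. Mx2, a GTPase that blocks viruses, went from 2.97 ± 0.662 to 51.2 ± 0.852 CPM (SD, n = 3 each). Oas3, an oligoadenylate synthetase that makes the signal for RNase L, went from 3.33 ± 0.338 to 50.7 ± 4.33 CPM (SD, n = 3 each). The members that did not pass were Samhd1, at log2 -0.12 (by library totals alone it fell, at -0.1708), and Ifi27l2a, at log2 0.22. In the Ifit, Oas and Gbp families reads may be split or dropped between near-identical copies, so single members are uncertain.

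The interferon-induced GTPases, which attack vacuoles of microbes, had 15 of 15 tested higher and a median log2 fold change of 2.80, with 2 kept only through the Firre libraries. Gbp3 went from 10.1, 7.09 and 7.11 CPM to 87.5, 83.6 and 92.4 CPM. Irgm1 went from 74.5, 71.5 and 67.3 CPM to 267, 256 and 270.2 CPM. The groups did not overlap for either gene, nor for 61.2% of all genes. All 6 genes tested of the ISG15 pathway, which tags proteins with a ubiquitin-like molecule, rose. Isg15 itself was at 14.2 ± 1.24 CPM in the blank and 118 ± 5.54 CPM with Firre, and Usp18, the protease that removes ISG15, went from 14.1 ± 1.95 to 157 ± 4.80 CPM (SD, n = 3 each).

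Signalling genes of the pathway split. The factors of the interferon response rose, Stat2 by 1.94, Irf9 by 1.43 and Irf7 by 2.05 on the log2 scale. Irf7, which amplifies interferon production, was at 154, 147 and 148 CPM in the blank, at 124, 121 and 119.9 CPM with the vector and at 617, 639 and 608 CPM with Firre, so the vector libraries lay below and the Firre libraries above the blank (adjusted p = 0.0054 and 6.667e-24 in edgeR). The receptor chains Ifnar1, Ifnar2 and Ifngr1 fell by 0.41, 0.33 and 0.67 on the log2 scale, and the kinases Jak1 and Jak2 fell as well. Over the list of 19 tested, 8 rose and 7 fell, beside 28.3% and 28.8% of all genes. The interferon genes Ifnb1, Ifna4 and Ifng did not reach the count minimum and were not tested. Ifnb1 had 0 counts in all 6 control libraries and 5, 1 and 3 counts with Firre, Ifna4 had 0 in the controls and 1, 1 and 0 with Firre, and Ifng had 0 in all 9 libraries.

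Of 16 nucleic acid sensors and adaptors tested, 10 rose and 4 fell, beside 28.3% and 28.8% of all genes. Ifih1 and Ddx58, which detect foreign RNA in the cytosol, went from 26.6 ± 3.87 to 155 ± 5.59 CPM and from 60.9 ± 6.53 to 205 ± 7.01 CPM (SD, n = 3 each). Zbp1, a sensor of left-handed nucleic acid, rose by 2.82 on the log2 scale and Tlr3, a sensor of double-stranded RNA in endosomes, by 1.09. Tlr7, which senses single-stranded RNA in immune cells and was kept only through the blank, stood at 1.97, 2.10 and 1.42 CPM there and at 0.203, 0.0451 and 0.314 CPM with Firre, and Tmem173, the adaptor STING, fell by 1.21. Cgas, at log2 -0.19, and Myd88, at -0.08, did not pass.

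Genes that cut, load and present peptides to T cells on class I molecules were higher, 19 of 20 tested with a median log2 fold change of 1.10. Psmb8, a proteasome subunit for such peptides, went from 5.02, 4.21 and 4.21 CPM to 29.0, 29.4 and 26.1 CPM. The peptide transporter Tap1 went from 12.3 ± 0.372 to 37.1 ± 1.66 CPM (SD, n = 3 each). H2-D1, a class I heavy chain, was at 123 CPM in the blank, at 105 to 109.9 CPM with the vector and at 263 to 271 CPM with Firre. Among 31 subunits of the constitutive proteasome, 9 rose, a share near the 28.3% of all genes. Class II genes had 3 members tested, of which H2-Ab1 fell. It did not pass in DESeq2 (log2 -1.078, adjusted p = 0.051), nor in edgeR without Firre overexpression replicate 1 or 3 or blank control replicate 1 or 3 (log2 -0.9924, -0.8258, -0.8671 and -0.9962, adjusted p = 0.075, 0.12, 0.11 and 0.07).

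Other inflammatory genes went the other way. Of 23 chemokines and cytokines tested, 5 rose, namely Ccl5, Cxcl10, Cxcl11, Il33 and Lif, and 14 fell; 2 were kept only through the Firre and 3 only through the blank libraries. Lif did not pass by library totals alone or without Firre overexpression replicate 3 or blank control replicate 2 (log2 0.1737, 0.1761 and 0.172, adjusted p = 0.053, 0.089 and 0.084 in edgeR). Ccl2, which draws monocytes, fell from 438 ± 35.5 to 307 ± 11.8 CPM and the stromal chemokine Cxcl12 from 279.6 ± 6.72 to 96.5 ± 1.38 CPM (SD, n = 3 each). Of 17 complement genes 13 fell and none rose, with 4 kept only through the blank. C3, the central complement component, was at 171, 141 and 155 CPM in the blank and at 47.1, 56.3 and 55.6 CPM with Firre. Macrophage marker counts, given below, were also lower in the Firre libraries; their part in these falls was not tested.

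**Figure D2:**
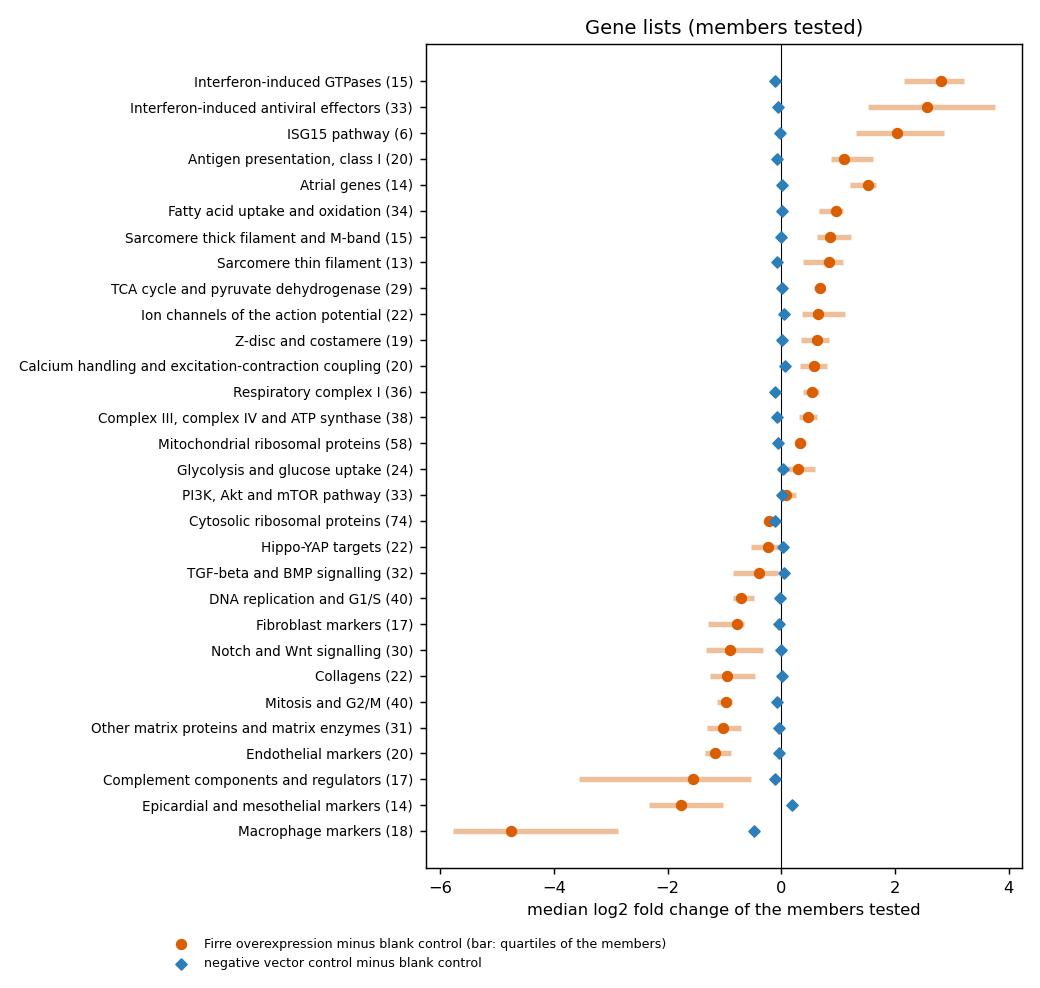
Median log2 fold change of the members tested in 30 gene lists (x axis), for Firre overexpression minus blank (circles, bars from the lower to the upper quartile) and for the vector control minus blank (diamonds). Circles run from 2.80 for interferon-induced GTPases to -4.75 for macrophage markers, whose diamond is at -0.48. Of the 18 macrophage markers tested 12 were kept only through the blank libraries, and of the 15 GTPases 2 only through the Firre libraries. Their inclusion already used the difference between the groups, so these medians are descriptions.

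Genes of the contractile apparatus rose by smaller factors from high levels. Of 15 thick filament and M-band genes 14 rose, and of 13 thin filament genes 12 rose, with medians of 0.86 and 0.83 on the log2 scale and none lower. Myh6 stood at 15003, 15097 and 16271 CPM in the blank, at 14535 to 16456 CPM with the vector and at 24382, 25537 and 23682 CPM with Firre (log2 0.67, SE 0.05, adjusted p = 9.918e-13 in edgeR). Ttn, the giant spring of the sarcomere, went from 2849, 3714 and 2812 CPM to 5140, 5057 and 4844 CPM, with the vector libraries at 3677 to 4134 CPM. For both genes every Firre library lay above the blank. Tnni3, the heart form of troponin I, rose from 769 ± 59.6 to 1536 ± 21.6 CPM (SD, n = 3 each), and Tpm1, tropomyosin, was at log2 0.01 and did not pass. The Z-disc and costamere list had 17 of 19 higher and 2 lower, with the largest rise in Ldb3, which went from 400.4 ± 6.17 to 1025 ± 26.8 CPM; Vcl, vinculin, was among those that fell, by 0.23.

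Calcium handling genes were higher in 16 of 20 tested and lower in 2. Atp2a2, the pump that refills the sarcoplasmic reticulum, stood at 2783, 3121 and 3030 CPM in the blank, at 3269 to 3359 CPM with the vector and at 7156, 7076 and 6866 CPM with Firre (log2 1.24, SE 0.04, adjusted p = 1.195e-19 in edgeR). Ryr2, the calcium release channel, went from 1014 ± 78.9 to 1959 ± 49.2 CPM (SD, n = 3 each). For both, each Firre library lay above all 6 control libraries. The members that fell were Itpr2, an inositol trisphosphate receptor, and Calr, a calcium-binding chaperone. Among ion channels of the action potential 18 of 22 tested rose and 1 fell. Kcnip2, a subunit of the transient outward current, rose by 2.34 on the log2 scale from 1.71 CPM, and Kcnj11, the pore of the ATP-sensitive potassium channel, from 16.4 ± 2.51 to 57.2 ± 1.82 CPM. At the intercalated disc 13 of 16 rose, among them Dsp, the plaque protein desmoplakin, by 0.71 and the gap junction gene Gja5 by 0.90.

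Of 14 atrial genes 13 rose, their median log2 fold change being 1.52, and 8 of 12 ventricular genes rose with a median of 0.24; the difference between the lists was not tested. Myl7, the atrial regulatory light chain, was at 329.9, 325 and 354 CPM in the blank and at 1024, 1064 and 1113 CPM with Firre. Myl2, the ventricular form, went from 924, 912 and 986 CPM to 1119, 1167 and 1105 CPM. The groups did not overlap for either light chain, nor for 61.2% of all genes. Sln, an atrial brake on the calcium pump, rose 2.54-fold and Pln, the ventricular brake, 1.30-fold. Nppa, the atrial natriuretic peptide, went from 3960, 3588 and 3783 CPM to 6422, 6589 and 6755 CPM, whereas Nppb, its stress-induced relative, was at log2 0.09 and did not pass. Nr2f2, a factor of atrial identity, was the atrial member that fell, by 0.32. Of 18 core cardiac transcription factors 12 rose, Tbx5 from 74.8 ± 1.61 to 173 ± 2.34 CPM and Myocd, a coactivator of muscle genes, from 75.2 ± 6.597 to 153 ± 3.02 CPM (SD, n = 3 each), and Meis2, Nfatc1, Hand2 and Gata6 fell. Nfatc1 did not pass without Firre overexpression replicate 3 or blank control replicate 1 or 2 (log2 -0.1564, -0.2013 and -0.1863, adjusted p = 0.13, 0.055 and 0.078 in edgeR), nor Gata6 without blank control replicate 2 (log2 -0.1159, adjusted p = 0.079 in edgeR).

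Of 34 genes of fatty acid uptake and oxidation 31 rose, with a median of 0.96, and Fabp4, also an endothelial gene, was the member that fell. Acaa2, the last enzyme of the mitochondrial spiral, was at 172, 180.0 and 188 CPM in the blank and at 442, 485 and 426 CPM with Firre. Pdk4, the kinase that spares glucose by shutting pyruvate dehydrogenase, went from 26.4, 24.99 and 23.7 CPM to 82.2, 105 and 90.3 CPM (log2 1.89, SE 0.08). All 3 Firre libraries lay above the blank for both. Ucp3, a mitochondrial uncoupling protein of muscle, had the largest rise of the list, 2.98 on the log2 scale from 1.33 CPM. All 29 genes of the TCA cycle, its shuttles and pyruvate dehydrogenase rose, from 0.35 for Suclg2 to 1.005 for Pdhb. Pdhb, a pyruvate dehydrogenase subunit, went from 175 ± 8.57 to 350.3 ± 10.3 CPM and Ogdh, a TCA cycle enzyme, from 427 ± 7.74 to 793 ± 29.0 CPM (SD, n = 3 each).

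The respiratory chain followed at smaller size. Atp5b, a catalytic subunit of ATP synthase, went from 2416 ± 52.8 to 3860 ± 48.7 CPM and Ndufs1, the largest complex I subunit, from 180.2 ± 1.10 to 289 ± 6.81 CPM (SD, n = 3 each). Complex I had 32 of 36 nuclear-encoded genes higher (median 0.54), complexes III and IV with ATP synthase had 35 of 38 (median 0.47), and mitochondrial ribosomal proteins had 47 of 58 (median 0.34) with 1 lower. Of 15 mitochondrially encoded genes 6 rose and none fell, with a median of 0.16; without single libraries the median ran from -0.0021 (without Firre overexpression replicate 1, with 5 higher and 1 lower) to 0.37 (without blank control replicate 1, with 6 higher and none lower), and 1 was lower without blank control replicate 2 or 3. Regulators of mitochondrial genes rose in 9 of 17, among them Ppargc1a, Ppargc1b, Ppara, Esrra, Esrrg and Perm1. Ppargc1a, the coactivator PGC-1 alpha, was at 36.0, 29.5 and 30.9 CPM in the blank and at 91.1, 80.1 and 83.2 CPM with Firre (log2 1.40, SE 0.07), with no overlap. Its relative Pprc1 and the nuclear receptor Rxra fell, the latter not without Firre overexpression replicate 3 or blank control replicate 2 (log2 -0.153 and -0.1429, adjusted p = 0.063 and 0.074 in edgeR). In glycolysis 16 of 24 rose and 4 fell: the muscle enzymes Pgam2, Eno3 and Pfkm rose by 1.25, 0.82 and 0.74, and Eno1, Ldha, Pfkfb3 and the lactate exporter Slc16a3 fell.

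The cardiomyocyte markers took 3.63% to 3.76% of gene counts in the blank, 3.60% to 3.87% with the vector and 5.28% to 5.60% with Firre, a 1.48-fold higher share, and 12 of 12 markers rose, from 0.30 for Tnnt2 to 1.36 for Ldb3. In bulk samples fewer or more cells of a type and less or more RNA per cell cannot be told apart, and the part of cell makeup in the rises of muscle and mitochondrial genes was not tested.

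**Figure D3:**
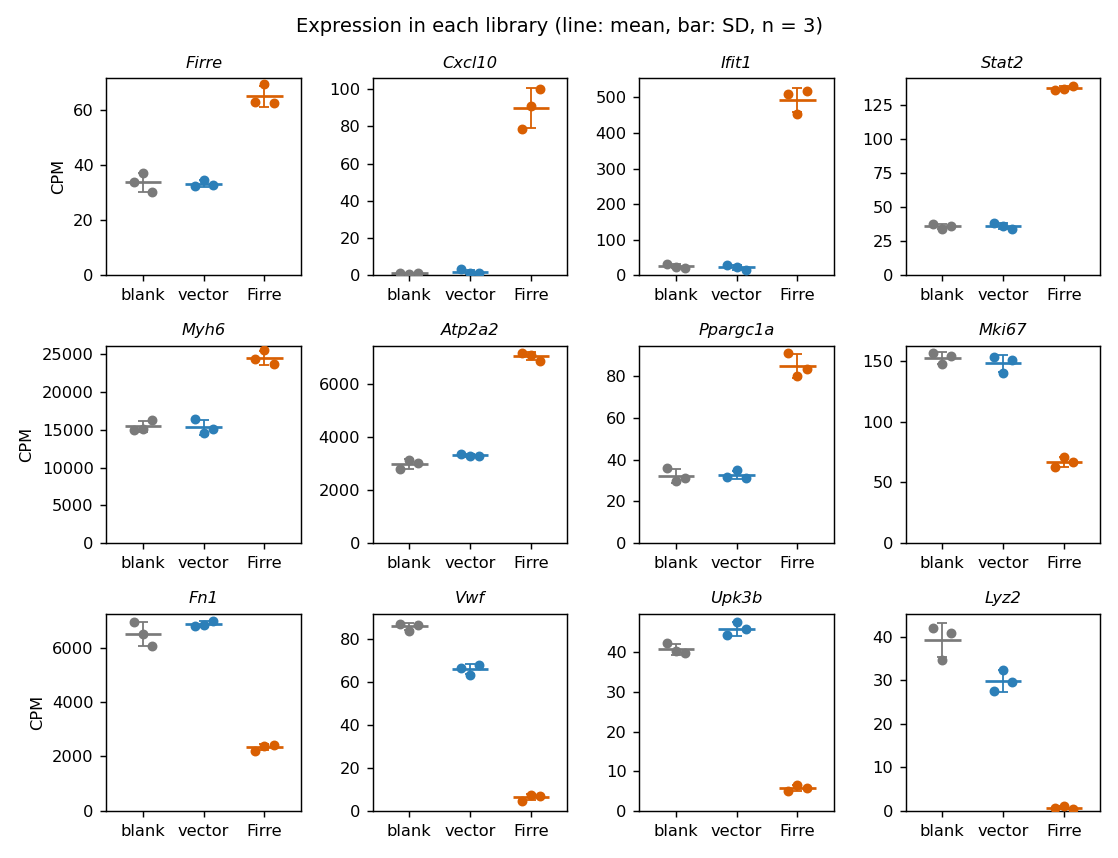
CPM of 12 genes (y axes from 0) in each of the 3 blank, 3 vector control and 3 Firre overexpression libraries, with mean and SD. In each panel the 3 Firre libraries lie apart from the 6 control libraries, and for Vwf and Lyz2 the vector libraries lie below the blank.

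Cell cycle genes were lower. All 40 mitosis and G2/M genes tested fell, with a median of -0.98, and 37 of 40 genes of DNA replication fell, with a median of -0.70 and none higher. Mki67, the proliferation antigen, was at 156, 147 and 154 CPM in the blank, at 153, 140.3 and 151 CPM with the vector and at 62.4, 70.7 and 66.5 CPM with Firre (log2 -1.20, SE 0.06, adjusted p = 3.613e-17 in edgeR). Top2a, which untangles chromosomes, went from 112, 120.0 and 114 CPM to 58.3, 58.3 and 57.9 CPM. Mcm6, a subunit of the replicative helicase, fell from 46.6 ± 2.43 to 25.2 ± 1.21 CPM (SD, n = 3 each). For each of these genes the Firre libraries were below all 6 control libraries. Marker shares of fibroblasts, endothelial cells and epicardial cells, given below, were also lower with Firre. Their part in the falls of cell cycle genes was not tested. The Mcm6 promoter is shown because 2 matches to the letters bound by E2F factors, which drive replication genes, lie in it.
Mcm6 (chr1:128359706-128359855, minus strand): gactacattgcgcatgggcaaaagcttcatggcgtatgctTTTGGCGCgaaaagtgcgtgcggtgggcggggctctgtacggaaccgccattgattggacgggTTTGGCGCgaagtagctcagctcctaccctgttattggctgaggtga
Capitals mark TTTGGCGC, which together with TTTCCCGC was searched on both strands; either occurs in 514 of the 32851 windows.

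Regulators of the cycle were mixed. Cdk4, a kinase of the G1 phase, fell from 204 ± 14.7 to 128 ± 2.67 CPM and the D cyclin Ccnd1 by 0.29. The inhibitor Cdkn1a (p21), a p53 target, rose from 219.7 ± 8.38 to 304 ± 7.31 CPM, and the inhibitors Cdkn2a, Cdkn2b, Cdkn2c and Cdkn1c fell. Of 20 p53 targets 12 rose and 3 fell, or 5 fell by library totals alone, the median being 0.30. Of 29 replication-dependent histones listed, 13 reached the count minimum, 3 of them only in the Firre libraries, and those tested rose. Hist1h1c, a linker histone, went from 122, 118 and 133 CPM to 200.5, 218 and 200.1 CPM. These RNAs mostly lack a polyA tail, the labels give both polyA RNA and rRNA depletion, and the family has near-identical copies.

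Ptbp1, a splicing repressor, was at 330.4, 299 and 316 CPM in the blank, at 309, 284 and 305 CPM with the vector and at 161, 174 and 176 CPM with Firre. Its log2 fold change was -0.89 with an SE of 0.05 (adjusted p = 4.385e-15 in edgeR), and the Firre libraries lay below all others. Its paralogue Ptbp3 fell by 0.77, and Ptbp2, at log2 -0.21, did not pass, although it did without a low-count filter, without Firre overexpression replicate 1 and without blank control replicate 3 (log2 -0.2105, -0.2958 and -0.3221, adjusted p = 0.019, 0.048 and 0.0088 in edgeR). Of 36 splicing regulators tested 18 fell and 9 rose, beside 28.8% and 28.3% of all genes. The number that rose was 5 without Firre overexpression replicate 1 or without blank control replicate 3. The muscle factors Rbm24 and Rbm20 rose, from 84.3 ± 7.76 to 196 ± 4.07 CPM and from 149 ± 8.23 to 269 ± 14.2 CPM (SD, n = 3 each), and Srsf2, Srsf5, Hnrnpa1 and Hnrnpd fell.

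Akt1, a kinase of the growth pathway, was at 314, 330.2 and 344 CPM in the blank and at 298, 328 and 312 CPM with Firre, and the groups overlapped (log2 -0.08, adjusted p = 0.18 in edgeR). Scaled by library totals alone it passed, at log2 -0.1286 (adjusted p = 0.023 in edgeR). Akt2, the insulin-linked form, went from 152, 153 and 152 CPM to 191, 202 and 185 CPM (log2 0.34, SE 0.05), without overlap. Over 33 genes of the PI3K, Akt and mTOR pathway 11 rose and 6 fell, where 28.3% of all genes rose and 28.8% fell. Mtor rose 1.37-fold, and Sgk1, a kinase close to Akt, fell from 142 ± 3.11 to 51.4 ± 2.31 CPM (SD, n = 3 each). These are RNA levels and do not measure phosphorylation.

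Among growth factor receptors and ligands 9 of 27 rose and 15 fell, beside 28.3% and 28.8% of all genes. Erbb4, the neuregulin receptor of heart muscle, was at 31.0, 31.6 and 27.1 CPM in the blank and at 116, 100.4 and 106 CPM with Firre. Its ligand gene Nrg1, made by endothelial cells, went from 115, 121 and 99.5 CPM to 23.7, 25.5 and 26.8 CPM. The receptor rose and the ligand fell without overlap of the groups, which was also absent in 61.2% of all genes. Egfr fell from 70.8 ± 2.95 to 20.8 ± 1.55 CPM, and Igf1 and Kit fell by 1.85 and 2.33 on the log2 scale. Of 21 FOXO targets 13 rose and 2 fell, with Txnip, an inhibitor of glucose uptake, higher by 1.06 and the muscle ubiquitin ligase Fbxo32 by 1.08.

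Of 30 Notch and Wnt genes 23 fell, Notch1 from 83.8 ± 2.52 to 40.8 ± 0.901 CPM and Wnt5a from 39.9 ± 3.72 to 13.5 ± 0.505 CPM (SD, n = 3 each), and Dkk3, Tcf7l2 and Lrp6 rose. Of these 30 genes 1 was kept only through the blank libraries. Tcf7l2 did not pass by library totals alone, with no low-count filter, or without Firre overexpression replicate 3 or blank control replicate 1 or 3 (log2 0.1952, 0.2461, 0.2001, 0.2278 and 0.2341, adjusted p = 0.073, 0.051, 0.11, 0.067 and 0.06 in edgeR). Of 32 TGF-beta and BMP genes 21 fell, among them Bmp6, Eng and the target genes Id1, Id2 and Id3, and 5 rose (3 without blank control replicate 1), among them the atrial ligand Bmp10 by 1.53. Hippo-YAP targets had 15 of 22 lower, with Ccn2, a matrix-bound growth modulator, going from 1656, 1604 and 1597 CPM to 926, 960.4 and 975.1 CPM. Immediate early genes, which answer growth signals within minutes, had 17 of 28 lower, Klf4 going from 68.3 ± 4.55 to 34.1 ± 2.001 CPM (SD, n = 3 each).

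The 10 largest losses in CPM were Fn1, Col1a1, Actb, Col1a2, Thbs1, Fbln2, Sparc, Bgn, Acta2 and Col4a1, mostly matrix genes. Of 22 collagens 18 fell and Col4a5 rose (2 rose without Firre overexpression replicate 3), and of 31 other matrix proteins and enzymes 30 fell and Fbn2 rose, with medians of -0.95 and -1.02. Fn1, fibronectin, was at 6951, 6492 and 6068 CPM in the blank, at 6786, 6826 and 6997 CPM with the vector and at 2215, 2385 and 2440 CPM with Firre, 2.77-fold lower (log2 -1.47, SE 0.05, adjusted p = 2.263e-20 in edgeR). Col1a1 went from 4265 ± 213 to 2162 ± 136 CPM, and Fbln2, an elastic fibre protein, from 2034 ± 57.3 to 656 ± 40.7 CPM (SD, n = 3 each). Fibroblast markers were also lower, 16 of 17 tested, and their summed share was 1.22% to 1.27% of gene counts in the blank, 1.21% to 1.24% with the vector and 0.577% to 0.637% with Firre. Their part in the falls of matrix genes was not tested.

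Endothelial markers fell in 18 of 20 tested, with a median of -1.17, and Cldn5 and Robo4 did not pass. Vwf, the clotting factor stored in vessel lining, stood at 87.0, 84.1 and 86.8 CPM in the blank, at 66.7, 63.6 and 68.2 CPM with the vector and at 4.66, 7.21 and 7.05 CPM with Firre. It was lower with the vector (adjusted p = 0.038 in edgeR) and lowest with Firre (log2 -3.76, SE 0.09, adjusted p = 6.890e-22 in edgeR). Cdh5, the vessel cadherin, went from 280.2 ± 8.06 to 101 ± 6.79 CPM and the receptor gene Tie1 from 90.5 ± 2.67 to 25.5 ± 1.77 CPM (SD, n = 3 each). The list's share of gene counts was 0.180% to 0.188% in the blank, 0.175% to 0.179% with the vector and 0.0738% to 0.0773% with Firre. The vessel growth factors Vegfa and Vegfb rose, by 0.34 and 0.71. Of 20 angiogenic factors and receptors tested, however, 13 fell and 5 rose, beside 28.8% and 28.3% of all genes.

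Epicardial and mesothelial markers, genes of the heart's outer lining, fell in 14 of 14 tested, with a median of -1.76. Upk3b, a mesothelial membrane protein, went from 42.4, 40.2 and 39.8 CPM to 5.06, 6.45 and 5.80 CPM, with the vector at 44.3 to 47.6 CPM, and Wt1, a factor of epicardial cells, from 27.7 ± 2.003 to 6.29 ± 0.462 CPM (SD, n = 3 each). Smooth muscle and pericyte markers had 11 of 14 lower and 3 higher, the latter being Des, Abcc9 and Myl9. The share of smooth muscle markers was 1.35-fold lower with Firre, that of fibroblast markers 2.01-fold, of endothelial markers 2.44-fold, of epicardial markers 3.41-fold and of macrophage markers 8.89-fold. For each of these 5 shares the groups did not overlap, and the exact two-sided permutation p was 0.10, the smallest that 3 against 3 libraries allow.

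**Figure D4:**
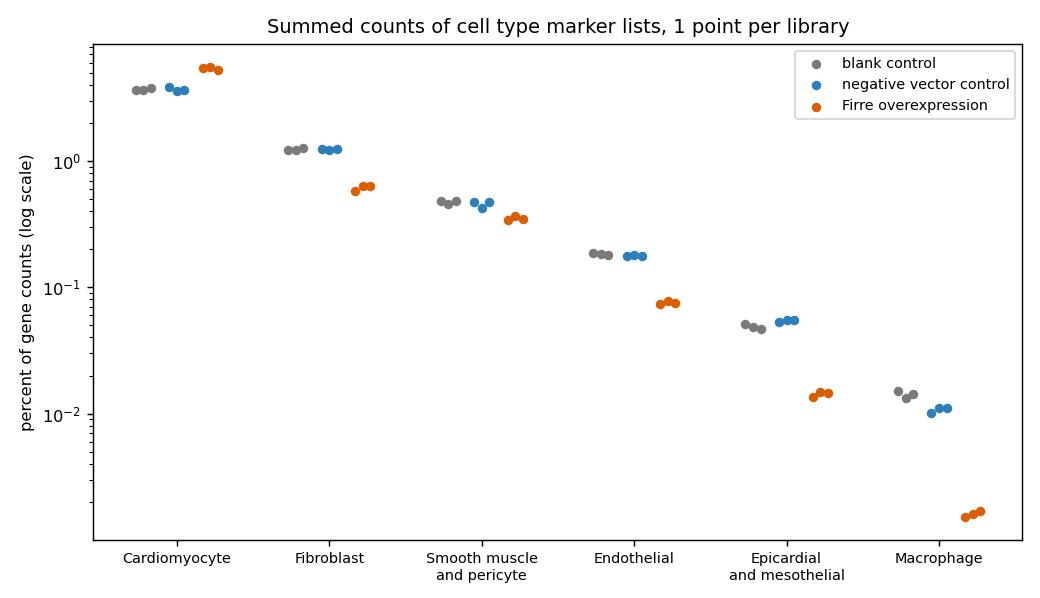
Summed counts of 6 marker lists as a percent of gene counts (log y axis), 1 point per library. The cardiomyocyte share is higher in the 3 Firre libraries (5.28% to 5.60%) than in the controls, and the other 5 shares are lower; macrophage markers are also lower with the vector (0.0101% to 0.0111%) than in the blank (0.0134% to 0.0152%).

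The 12 largest falls, chosen like the largest rises, were in C1qa, Wfdc17, Ccl6, Cd300lf, Clec4n, Fcgr2b, C1qc, Adgre1, Spi1, Ctss, Mmp12 and Lyz2, known mostly from macrophages and other myeloid cells, and all but Lyz2 and Mmp12 passed the count minimum only in the blank. The 20 macrophage markers together took 0.0134% to 0.0152% of gene counts in the blank, 0.0101% to 0.0111% with the vector and 0.00151% to 0.00170% with Firre. Lyz2, lysozyme, stood at 42.1, 34.8 and 40.8 CPM in the blank, at 27.6, 32.5 and 29.6 CPM with the vector and at 0.608, 1.08 and 0.523 CPM with Firre (log2 -5.69, SE 0.16, adjusted p = 8.949e-22 in edgeR). Ccl6, a chemokine of myeloid cells, was at 34.5, 28.9 and 28.7 CPM in the blank, at 16.3, 20.3 and 17.8 CPM with the vector and at 0 to 0.316 CPM with Firre. No test is given for Ccl6 because its inclusion rests on the blank libraries. For both genes the vector libraries lay below the blank and far above the Firre libraries. C1qa, a chain of the first complement component, had 220 counts in the blank and 0 with Firre, at least 83.3-fold lower against a floor of 3 counts over the group. Spi1, the master factor of myeloid cells, had 166 and 3 counts, 62.9-fold lower with Firre. Both C1qa and Spi1 were kept only through the blank libraries, so these ratios are descriptions and no interval is given. Of the 18 markers tested 17 fell, but 12 reached the count minimum only in the blank, so that their inclusion already used the difference between the groups, and the count is a description. Csf1r, the growth factor receptor of macrophages, fell from 13.7 ± 0.949 to 7.62 ± 0.473 CPM (SD, n = 3 each), and Lyve1 did not pass. None of 17 neutrophil and lymphocyte markers reached the count minimum.

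Ribosomal protein genes of the cytosol fell in 45 of 74 tested against 28.8% of all genes, with 3 higher and a median of -0.21; the vector control's median was -0.11 with no member called. Rpl3 went from 466, 446 and 495 CPM to 332, 370.0 and 358 CPM. Of 34 genes of the unfolded protein response and ATF4, 14 rose and 15 fell, beside 28.3% and 28.8% of all genes. Ddit3, the stress factor CHOP, went from 40.1, 38.6 and 36.2 CPM to 107, 100.1 and 105 CPM, while the chaperones Calr, Pdia3, Pdia4 and Pdia6 fell. Of 25 heat shock genes 16 rose and none fell (1 fell without Firre overexpression replicate 3 or blank control replicate 2, and 2 by library totals alone), Hspb8, a small heat shock protein, going from 158 ± 3.13 to 359 ± 9.48 CPM (SD, n = 3 each). Of 29 NRF2 enzymes and glutathione transferases 16 rose and 5 fell, and 1, Gsta2, was kept only through the Firre libraries. Gsta2 was at 0.196 to 0.508 CPM in the blank and at 6.11 to 8.35 CPM with Firre, Gpx3, a secreted glutathione peroxidase, went from 747 ± 55.1 to 1551 ± 17.1 CPM, and catalase, Cat, rose by 0.80 on the log2 scale.

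Near Firre on the X chromosome 6 other genes within 1 Mb were tested. Stk26, a germinal centre kinase gene 205.7 kb away, stood at 21.4, 22.9 and 17.1 CPM in the blank, at 22.6 to 23.8 CPM with the vector and at 4.81, 6.08 and 6.48 CPM with Firre (log2 -1.82, SE 0.12, adjusted p = 1.037e-13 in edgeR). Hs6st2, a heparan sulfate modifying enzyme, fell from 78.6 to 38.6 CPM, and Mbnl3 and the pseudogene Gm14719 fell as well. Igsf1 rose from 1.41 to 3.18 CPM, and Rap2c did not pass (adjusted p = 0.66 in edgeR). Among 507 X-linked genes 121 rose (23.9%) and 156 fell (30.8%), beside 28.3% and 28.8% of all genes. Of 4 tested loci reported to touch Firre RNA, Slc25a12 and Ppp1r10 rose and Atf4 and Eef1a1 fell. Of all genes 57.0% were called, and whether these loci or the neighbours of Firre differ from that share was not tested.

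Among noncoding RNAs 83 of 287 lincRNA genes rose and 40 fell, and 80 of 333 antisense genes rose and 25 fell. These are 28.9% and 24.0% higher and 13.9% and 7.51% lower, beside 28.3% and 28.8% of all genes; whether the counting used strand is not stated, so antisense values are uncertain. The 5 lincRNA or antisense genes with the smallest p among those higher were AC119982.1, Gm10435, Gm42743, Gm5113 and Gm5532, with log2 fold changes of 1.60, 1.33, 2.11, 1.33 and 0.81. Among those lower they were Gm12840, Gm14005, Gm15675, Gm20186 and Meg3, of which Gm12840, kept only through the blank, stood at 7.37, 6.01 and 6.03 CPM there and at 0.304, 0.406 and 0.366 CPM with Firre. The imprinted H19 went from 103, 85.8 and 75.5 CPM to 24.6, 25.3 and 27.1 CPM. Meg3, another imprinted RNA, went from 96.6, 104 and 104 CPM to 43.0, 52.5 and 48.8 CPM. Both fell without overlap of the groups, which was also absent in 61.2% of all genes. Malat1, an abundant nuclear RNA, was at log2 0.05 and did not pass.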

How the data were processed

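RNA from 9 libraries (3 blank control, 3 vector control, 3 Firre overexpression) was read as 150-bp pairs after rRNA depletion, per the labels' protocols, although the molecule field gives polyA RNA. The deposited table holds raw read counts per Ensembl gene, not normalized. FastQC, Trimmomatic, STAR, featureCounts and mm10 are named in the submitters' processing notes, without versions, while the table ends in unassigned lines of another counter's style. Those lines, 16.3% to 17.4% of all counts, name no gene and were left out. Symbols came from GENCODE M21 (55227 identifiers matched).

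Counts of all 9 libraries were fitted at once in edgeR 4.0.16 (R 4.3.3) with TMM scaling and the quasi-likelihood test, 6 residual degrees of freedom and a biological coefficient of variation of 5.95%, for the 15279 genes with at least 10 counts in 3 of the 6 libraries compared. P-values were Benjamini-Hochberg adjusted over all of them. Alternatives were DESeq2 1.42.0, limma 3.58.1 voom, other scalings and filters, a replicate block and leaving out each library. Between 3 and 3 libraries an exact permutation test cannot go below 0.10. The test was also run on simulated counts, in which far fewer genes changed than were called here, so that run does not check the share of genes called.

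The genes named by rule were Firre, Ptbp1, Akt genes, 12 per direction with the largest fold change (2 CPM or more on the higher side), 10 per direction with the largest change in CPM, 3 per list with the smallest p, 5 noncoding genes per direction, neighbours of Firre and 8 genes for the vector control; other list members were chosen after their values were seen, and some genes are not reported here. The genes compared and the lists were chosen with earlier results of these data known. Ratios and floors from few counts pool the libraries of a group and leave out the spread between them.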

Additional observations from a re-analysis of the deposited data

How the results depend on the processing

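The count of genes changed by Firre against blank, 8713, ran from 7841 to 8796 over the alternatives (8104 in DESeq2, 8677 by library totals alone, 7841 to 8204 without single replicates), with both directions kept within 1.5 times. Deviations of libraries of the same replicate number correlated at -0.047 to 0.020, and those of different numbers at -0.046 to 0.061. No shared deviation was seen, but with 3 libraries a group this cannot show whether the samples were paired. With the replicate block 8515 genes passed for Firre against the blank and 7 for the vector control. The vector control count of 6 was 30 in DESeq2, 98 without a low-count filter and 0 to 62 without single replicates; the cause was not tested. Shares were also taken with the mitochondrially encoded genes out of the denominator. The differences, in percentage points, were then 1.952 for cardiomyocyte markers, 1.615 for thick filament genes and 0.2764 for antiviral effectors. They were -0.6579 for fibroblast, -0.115 for endothelial, -0.03674 for epicardial and -0.01349 for macrophage markers. These changes came by construction and kept the same directions. For the 10 most abundant genes the difference was 1.578, below the 2.184 with mitochondrially encoded genes in. A smaller denominator alone would raise that difference, so 1.578 does not measure the same share. In windows of 250 bases before the start the response element core occurred in 7.129% and the E2F letters in 1.3%, against 8.56% and 1.565% in 300 bases. Of 3524 log2 fold changes of the genes named, recomputed over 15 alternatives, 3485 kept direction and side of the threshold, 22 no longer passed, 9 passed only there and 8 turned in sign. The sign turned for Rap2c (-0.009841) and Tpm1 (-0.04522) by library totals alone. Without single replicates Rap2c ran from -0.03015 to 0.1198, Tpm1 from -0.03984 to 0.04902, Lyve1 from -0.01124 to 0.3156 and Malat1 from -0.053 to 0.1318, and none of these passed where the sign turned. By library totals alone Samhd1 passed at -0.1708.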

Other observations

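Of 24 genes of cell death tested, 14 fell and 2 rose, beside 28.8% and 28.3% of all genes, with a median log2 fold change of -0.29. Of these 24 genes 1 was kept only through the blank libraries. Casp1, the protease of the inflammasome, fell by 1.85 (from -1.237 without Firre overexpression replicate 2, where the adjusted p was 0.048 in edgeR, to -3.053 without Firre overexpression replicate 1) and Ripk3, a kinase of necroptosis, by 0.65, while Zbp1 and Mlkl, which also act in necroptosis, rose by 2.82 and 0.24. Macrophage markers took 0.0134% to 0.0152% of gene counts in the blank and 0.00151% to 0.00170% with Firre; their part in these falls was not tested.

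Of 19 clock genes and their targets 11 rose and 3 fell, beside 28.3% and 28.8% of all genes. The output factors Dbp, Hlf and Tef rose by 0.61, 0.64 and 0.25 on the log2 scale, Npas2, a partner of BMAL1, by 1.04, and Per1, Cry2 and Bhlhe40 fell. Cry2 did not pass without Firre overexpression replicate 1 or blank control replicate 2 or 3 (log2 -0.2132, -0.1802 and -0.2148, adjusted p = 0.071, 0.12 and 0.059 in edgeR). In cholesterol synthesis and lipogenesis 11 of 30 fell and 4 rose, beside 28.8% and 28.3% of all genes. The number that rose was 1 without Firre overexpression replicate 1 or 2 or blank control replicate 3, and 2 without blank control replicate 2 or by library totals alone. The list's median log2 fold change against the blank was -0.17 with Firre and 0.19 with the vector, where no member was called. Stard4, a cholesterol carrier, fell by 0.86 with Firre and Acaca, which makes malonyl-CoA, by 0.54. Of 22 genes for the use of ketone bodies and branched-chain amino acids 12 rose and none fell, Ppm1k, a phosphatase that activates branched-chain keto acid breakdown, by 1.10 and Hibadh, a valine pathway enzyme, by 0.69.

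Adrenergic, muscarinic and cAMP signalling had 10 of 22 higher and 7 lower, beside 28.3% and 28.8% of all genes. The main adenylyl cyclases of heart muscle, Adcy5 and Adcy6, rose by 0.77 and 0.70, and Rgs4, a brake on G protein signals, fell by 1.75. Integrins and laminins had 15 of 24 lower and 4 higher, the basement membrane genes Lama4, Lamb1 and Nid1 falling by 0.89, 0.76 and 0.72.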
